A study of Mus musculus with 24 samples.

Results

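Gastrocnemius muscle, the large muscle of the calf, was compared between young mice given an AAV-GFP vector and young mice labelled Sham. The libraries were chosen by their titles and treatment labels, 4 of young GFP and 4 of young Sham, which makes 8 of the 24 libraries of the series. Young GFP mice were uninjured female C57BL/6J mice of 3 to 6 months that received 3e8 vector genomes of an adeno-associated virus of serotype 8 into the tail vein, with green fluorescent protein behind the LP1 promoter, and the muscle was taken 14 days later. LP1 is a promoter built for expression in hepatocytes, the vector was the control for a Klotho vector, which neither of these groups received. For young Sham mice the labels give only the age class, the tissue and the word Sham, and the sources used here do not describe what the sham procedure was, how long before sampling it took place or which sex was used. The injected cohorts performed hang tests before and after the injection, up to the day of sampling, and whether the sham mice did so is not given in the sources used here. The labels give no batch or date, so that any handling that differed between the groups cannot be told apart from the injection.

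Adeno-associated virus is a small virus without an envelope that is used to carry a gene into cells that do not divide, and its serotype 8 reaches liver, heart and muscle from the blood. Cells can sense its capsid and DNA through Toll-like receptors and other nucleic acid sensors, which feed into interferon-stimulated genes, antigen presentation and NF-kappaB. Muscle itself responds to adrenaline, glucocorticoids, fasting, exercise and time of day through a small set of transcription factors, among them the NR4A receptors, the PGC-1 alpha coactivator, the FOXO factors and the clock proteins. The transcript of the fluorescent protein is not part of the mouse annotation and was not analysed here.

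The young GFP libraries had 42194363 to 53266529 reads assigned to genes (median 45267698.5) and the young Sham libraries 48398115 to 50356803 (median 49262153). Young GFP libraries held 24064.5 ± 1063 genes with at least 1 read (SD, n = 4) and young Sham libraries 25168.5 ± 937 (SD, n = 4), a difference of -1104 genes that was within the spread (two-sided exact permutation test, p = 0.143). The 12 defining skeletal muscle genes took between 166700 and 194400 CPM (counts scaled to a common library size) in young GFP and between 145000 and 188700 CPM in young Sham. Xist stood between 125 and 170 CPM over the 8 libraries. The Y-linked genes Ddx3y, Kdm5d and Eif2s3y had no read in any of them, and Uty had 1 read in young Sham libraries 3 and 4 and none elsewhere. All 8 libraries, those of young Sham included, thus had the pattern of female tissue. Kl, the gene of Klotho, was at 0.33 to 0.41 CPM in young GFP and at 0.21 to 0.71 CPM in young Sham.

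RNA of other tissues was unevenly spread over the 8 libraries and did not follow the groups in a simple way. Summed over 12 keratinocyte markers of the epidermis, the level was 144, 2.36, 445 and 1.96 CPM in young GFP libraries 1 to 4 and 3.33, 7.71, 4.38 and 166 CPM in young Sham libraries 1 to 4. A list of 20 markers of glandular epithelium, drawn up after the values were seen, summed to 38.9 to 42.8 CPM in young GFP, to 114 CPM in young Sham library 2 and 194 CPM in young Sham library 4, and to 44.9 and 41.3 CPM in young Sham libraries 1 and 3. Markers of T cells and natural killer cells were at 45.5 CPM in young GFP library 3 and at 2.24 to 2.34 CPM in the other 3 young GFP libraries, against 27.6, 37.5 and 31.0 CPM in young Sham libraries 2 to 4 and 5.13 CPM in young Sham library 1. These markers were thus carried mainly by 4 libraries, 1 of young GFP and 3 of young Sham. Hepatocyte markers summed to 32.0 to 143 CPM in young GFP and to 54.3 to 289 CPM in young Sham, and in young GFP Apob, Cyp3a11, Fgg and Mup20 had no read. Their part in the results below was not tested, and counts are given below with young GFP libraries 1 and 3 and young Sham libraries 2 and 4 left out, which leaves 2 libraries in each group.

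**Figure D1:**
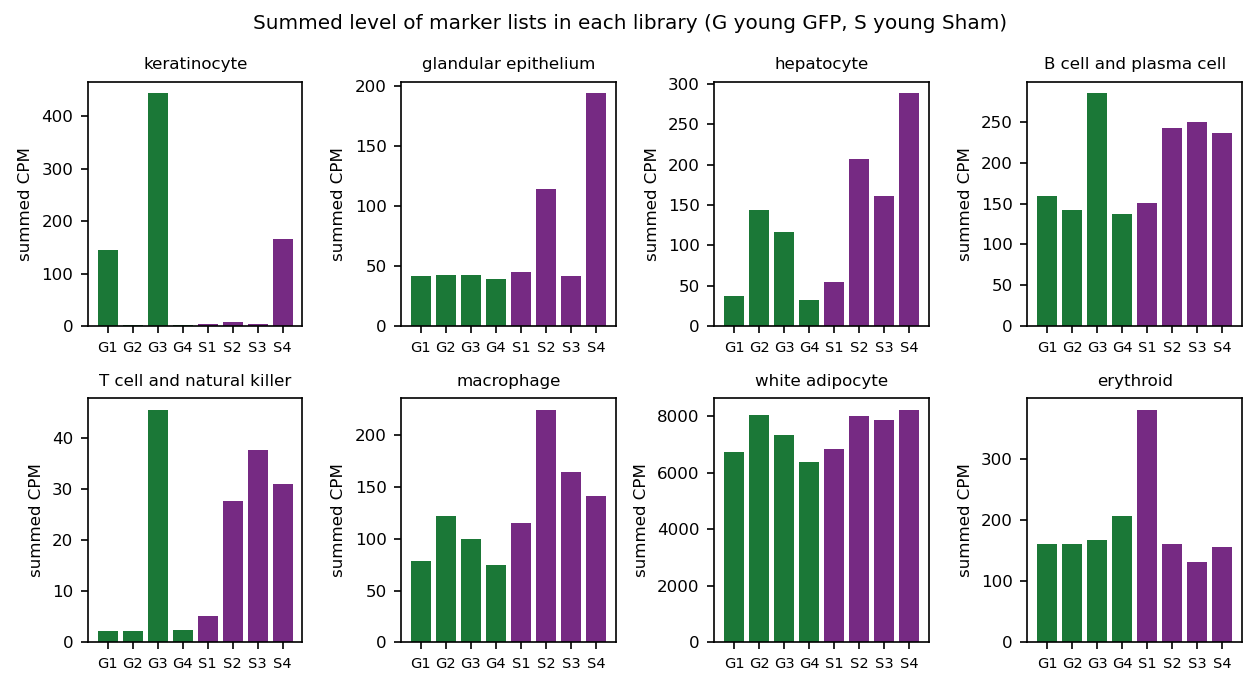
Summed level of 8 marker lists in each library, in CPM on a linear axis from 0 that differs between panels; green bars are young GFP libraries (G1 to G4) and purple bars young Sham libraries (S1 to S4). Keratinocyte RNA was high in G1, G3 and S4, glandular epithelial RNA in S2 and S4, and lymphocyte RNA in G3 and S2 to S4.

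Across the 500 most variable genes the young GFP and young Sham libraries did not separate beyond their spread. The pseudo-F, the variance between groups over the variance within them, was 1.35 (exact permutation test, p = 0.286, where 0.0286 is the smallest value the design allows). The leading principal component held 62.2% of the variance and the next 24.3%, and the 100 genes with the largest weights on them included 10 and 11 of the 12 keratinocyte markers. The groups differed along neither component (exact permutation test, p = 0.457 and p = 0.143).

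Single genes did differ. Of 17803 genes tested, 84 passed an adjusted p of 0.05 (0.472%), 50 of them higher in young GFP (0.281%) and 34 lower (0.191%). The levels of the groups did not overlap for 82 of the 84, against 9.76% of all genes tested (4.57% higher and 5.19% lower). The calls were made on these same values, so that the lack of overlap adds no support to them. Of the 84, 77 code for protein. Without adjustment 2389 genes (13.4%) had a p under 0.05, 855 higher (4.8%) and 1534 lower (8.62%). The split moved with the scaling: genes higher in young GFP made up 35.8% of the unadjusted and 59.5% of the adjusted calls with TMM, and 47.1% and 71.8% with the size factors of DESeq2. The number of adjusted calls also rested on single libraries, being 42, 33 and 10 without young GFP libraries 1, 2 and 4, and 1 and 32 without young Sham libraries 2 and 3, while the lower calls alone were 21 without young Sham library 4. With young GFP libraries 1 and 3 and young Sham libraries 2 and 4 left out, those with keratinocyte or glandular RNA, 3 genes were called, all among the 84, and 81 of the 84 had an unadjusted p under 0.05 in the same direction. Each of the 84 genes kept its direction and an unadjusted p under 0.05 when any single library was left out.

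**Figure D2:**
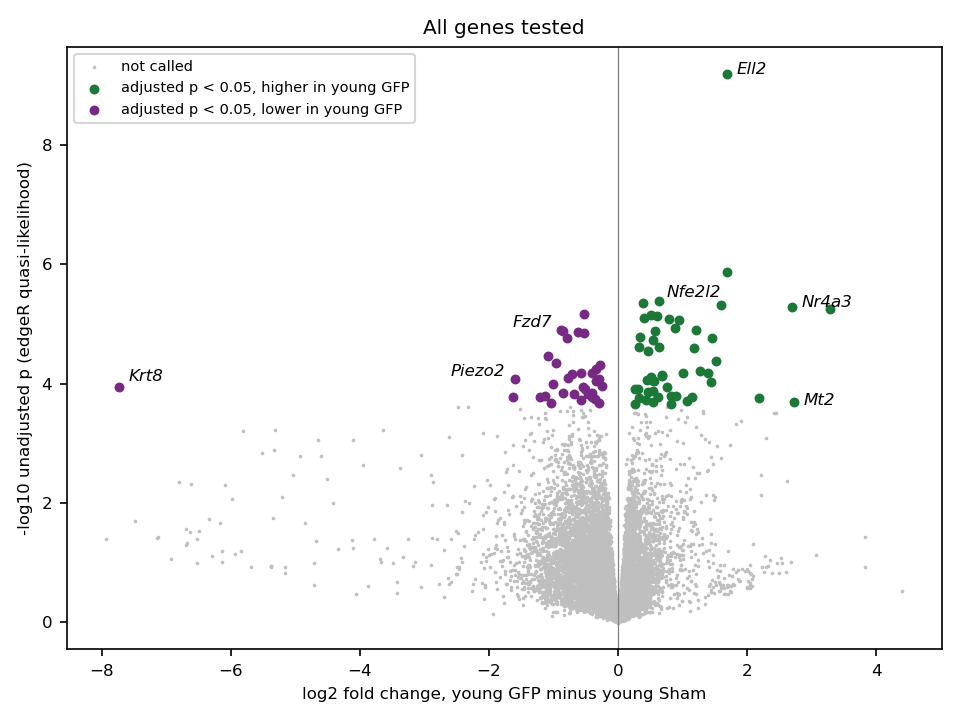
Each point is 1 of the 17803 genes tested, with the log2 fold change of young GFP over young Sham on the x axis and −log10 of the unadjusted edgeR p on the y axis; the 50 green and 34 purple points passed an adjusted p of 0.05. Ell2 stood highest, and Krt8, the purple point far to the left, was carried by 2 young Sham libraries.

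Several transcription regulators were among the genes that rose in young GFP. Nr4a3, an orphan nuclear receptor that muscle induces after adrenergic stimulation and exercise (chr4:48045153-48086447, GRCm38), was at 162, 168, 158 and 229 CPM in young GFP libraries 1 to 4 and at 24.3, 22.2, 20.6 and 44.0 CPM in young Sham libraries 1 to 4. The groups were far apart, at a log2 fold change of 2.69 ± 0.44 (SE, n = 4 per group, edgeR adjusted p = 0.0118). Ell2, a subunit of the complex that helps RNA polymerase II to elongate (chr13:75706757-75772364), was at 78.4, 113, 88.3 and 102 CPM in young GFP and at 29.7, 27.6, 31.4 and 29.8 CPM in young Sham. The lowest young GFP library was far above the highest young Sham library, and the young Sham libraries hardly differed from each other, at a log2 fold change of 1.69 ± 0.16 (edgeR adjusted p = 1.1e-05). Ell2 was the gene with the smallest p and passed in all 19 alternative analyses.

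Ppargc1a, the coactivator that drives mitochondrial and oxidative genes (chr5:51454250-51567726), was at 57.8, 97.5, 146 and 145 CPM in young GFP and at 38.1, 42.3, 54.1 and 59.1 CPM in young Sham. Young GFP library 1 fell within the range of young Sham, and the log2 fold change was 1.20 ± 0.21 (edgeR adjusted p = 0.0127). Maff, a small basic leucine zipper factor, rose from 1.80 to 4.26 CPM in young Sham to 6.80 to 9.11 CPM in young GFP without overlap, a log2 fold change of 1.44 ± 0.30 (edgeR adjusted p = 0.0333). Nfe2l2, which encodes NRF2, the activator of antioxidant genes, was at 74.0 to 92.8 CPM in young GFP and at 50.6 to 56.7 CPM in young Sham (log2 fold change 0.64 ± 0.10, edgeR adjusted p = 0.0118). Of 11 tested genes on a list of NRF2 targets, Srxn1 and Osgin1 passed an unadjusted p in the higher direction and none in the lower, beside 4.8% and 8.62% of all genes tested, and with the 4 libraries left out 1 was higher and 1 lower. Nr3c1, Crem and Bcl6, named here after their values were seen, rose as well. Nr3c1, the glucocorticoid receptor, had a log2 fold change of 0.51 ± 0.09 (edgeR adjusted p = 0.0118) and Crem, a cAMP-responsive modulator, of 0.64 ± 0.12 (edgeR adjusted p = 0.0165). The repressor Bcl6 was at 67.3, 205, 145 and 114 CPM in young GFP against 47.2 to 67.4 CPM in young Sham, so that young GFP library 1 overlapped with young Sham.

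Immediate early genes are those switched on fastest by a stimulus. Of 24 tested, 3 were higher (12.5% beside 4.8%) and 1 lower (4.17% beside 8.62%) at an unadjusted p: Nr4a3 and Maff passed the adjusted threshold, Ccn2 passed without adjustment in the higher direction and Fosb in the lower, and the median log2 fold change of the list was -0.18 against -0.03 over all genes tested. Among the other genes with the largest changes were Cnksr3, a scaffold protein that aldosterone induces in kidney (log2 fold change 1.47 ± 0.26), Rnf144b, a ubiquitin ligase (0.95 ± 0.16), Wbp1l (1.004 ± 0.20) and Slc35g1 (1.06 ± 0.24), each without overlap between the groups. Zbtb1, a zinc finger factor that lymphocytes need, had a smaller rise without overlap (0.40 ± 0.06) and was named for its small p. Values after ± are SE, and genes given without a p passed the adjusted threshold where they are said to have risen or fallen. For 3 further genes the call is uncertain, since each shares its locus with genes on the other strand and the unstranded counts leave out reads that fall on both. They were the pseudogene 4931440P22Rik (1.69 ± 0.25), which overlaps Tiparp, the antisense RNA Gm15469 (1.599 ± 0.26), which overlaps Trim54, and Cbarp (1.52 ± 0.29), which overlaps Atp5d and Stk11. When both strand columns were summed, which counts those reads for both genes, their log2 fold changes were 1.48, 0.06 and 0.42, and only that of 4931440P22Rik passed.

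Promoter sequence was searched for the letters of elements known from cAMP, clock, metal and glucocorticoid signalling, because regulators or targets of these signals were among the genes that rose. The elements were thus chosen from the same genes in which they were counted, and the shares support no signal on their own. The matches for the cAMP core and the metal letters also include Cbarp, and those for the metal letters Gm15469, whose calls are uncertain. RefSeq (GRCm38.p6) gave a window of the 250 bases before its own start for 40 of the 50 genes that rose and for 27 of the 34 that fell. That start can differ from the gene coordinates printed in the text, which come from GENCODE. By those coordinates the window of Ell2 lies inside the gene, and those of Nr4a3, Ppargc1a and Bhlhe41 run into it. The core of the cAMP response element, TGACG on either strand, was in 20 of the 40 (50%) and 5 of the 27 (18.5%), against 28.3% of 12079 tested genes and 19.8% of all 27025 genes with a window. The full element TGACGTCA, which contains that core, was in 2 of the 40 (5%), Ell2 and Maff, and in 0 of the 27, against 2.76% of tested and 1.77% of all genes. The E-box CACGTG of the clock and other helix-loop-helix factors was in 10 of the 40 (25%) and 2 of the 27 (7.41%), against 9.35% of tested and 6.86% of all genes. The metal response letters TGCACNC or TGCGCNC were in 18 of the 40 (45%) and 4 of the 27 (14.8%), against 32.9% of tested and 23.8% of all genes. The palindromic glucocorticoid response element was in 0 of the 40 and 0 of the 27, against 0.397% of tested and 0.44% of all genes. All motifs were searched on both strands, and the counts describe letters, not binding. The windows of Nr4a3 (4 core matches), Ell2 (4 matches, 2 of them within the full element), Ppargc1a and Hk2 (1 match each) are shown with the cAMP core in capitals, that of Bhlhe41 with the E-box in capitals, and that of Mt2 with the metal response letters in capitals; matches on the other strand appear as their reverse complement.
Nr4a3, chr4:48045055-48045304, plus strand: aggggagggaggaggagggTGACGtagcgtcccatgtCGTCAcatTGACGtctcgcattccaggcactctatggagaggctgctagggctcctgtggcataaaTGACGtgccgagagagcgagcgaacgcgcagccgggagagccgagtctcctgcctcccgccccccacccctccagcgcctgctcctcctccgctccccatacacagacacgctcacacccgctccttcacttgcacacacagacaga
Ell2, chr13:75707234-75707483, plus strand: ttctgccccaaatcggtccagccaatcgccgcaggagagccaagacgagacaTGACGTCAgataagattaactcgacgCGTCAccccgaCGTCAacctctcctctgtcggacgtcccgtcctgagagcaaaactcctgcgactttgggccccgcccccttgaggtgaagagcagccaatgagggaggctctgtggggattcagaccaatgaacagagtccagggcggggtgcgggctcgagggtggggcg
Ppargc1a, chr5:51567726-51567975, minus strand: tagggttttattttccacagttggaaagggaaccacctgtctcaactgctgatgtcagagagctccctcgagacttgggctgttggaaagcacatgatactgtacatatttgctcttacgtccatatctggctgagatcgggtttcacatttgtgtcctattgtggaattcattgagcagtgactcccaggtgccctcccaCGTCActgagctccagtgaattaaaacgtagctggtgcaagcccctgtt
Hk2, chr6:82774455-82774704, minus strand: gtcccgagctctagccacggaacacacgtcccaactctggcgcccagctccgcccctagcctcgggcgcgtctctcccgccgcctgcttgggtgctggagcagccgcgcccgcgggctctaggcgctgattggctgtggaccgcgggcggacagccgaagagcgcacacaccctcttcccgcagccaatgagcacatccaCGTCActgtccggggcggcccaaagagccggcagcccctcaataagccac
Bhlhe41, chr6:145865421-145865670, minus strand: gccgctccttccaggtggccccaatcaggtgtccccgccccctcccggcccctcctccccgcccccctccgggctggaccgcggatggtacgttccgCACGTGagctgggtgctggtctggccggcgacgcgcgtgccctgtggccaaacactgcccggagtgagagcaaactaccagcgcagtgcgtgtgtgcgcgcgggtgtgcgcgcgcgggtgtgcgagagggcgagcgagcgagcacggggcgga
Mt2, chr8:94172368-94172617, plus strand: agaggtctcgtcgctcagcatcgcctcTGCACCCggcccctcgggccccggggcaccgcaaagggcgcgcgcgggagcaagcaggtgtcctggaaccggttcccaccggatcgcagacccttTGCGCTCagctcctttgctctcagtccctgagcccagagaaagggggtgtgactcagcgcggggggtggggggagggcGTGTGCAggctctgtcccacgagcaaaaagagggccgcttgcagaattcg

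Genes of fuel use rose as well. Ucp3, a mitochondrial carrier of skeletal muscle that rises with fatty acid supply (chr7:100472990-100486432), was at 315, 256, 248 and 399 CPM in young GFP and at 87.3, 110, 116 and 151 CPM in young Sham. Every young GFP library was above every young Sham library, at a log2 fold change of 1.39 ± 0.28 (edgeR adjusted p = 0.0315). Ppp1r3c, the subunit that targets protein phosphatase to glycogen, was at 938, 1084, 930 and 1576 CPM in young GFP and at 455, 440, 564 and 593 CPM in young Sham (log2 fold change 1.14 ± 0.25, edgeR adjusted p = 0.0417). Hk2, the insulin-regulated hexokinase of muscle, was at 329 to 407 CPM against 225 to 268 CPM (log2 fold change 0.57 ± 0.10, edgeR adjusted p = 0.0127). Slc25a33, a mitochondrial pyrimidine carrier, was at 10.9 to 15.2 CPM against 5.79 to 8.08 CPM (log2 fold change 0.88 ± 0.15, edgeR adjusted p = 0.0127).

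On the list of fatty acid oxidation and PPAR genes 8 of 24 were higher in young GFP at an unadjusted p under 0.05, 2 of them after adjustment, and 0 were lower. The share of 33.3% stood beside 4.8% of all genes tested, and the median log2 fold change of the list was 0.14. Pdk4, which shuts off glucose oxidation, was at 1076, 710, 818 and 1226 CPM in young GFP and at 185, 434, 444 and 615 CPM in young Sham, without overlap, and passed only without adjustment (log2 fold change 1.19 ± 0.49, edgeR unadjusted p = 0.0231 and adjusted p = 0.292). Ppara, the receptor for fatty acids, had a log2 fold change of 0.51 ± 0.19 and Mlycd, which lowers malonyl-CoA, of 0.34 ± 0.13, both past the unadjusted threshold alone. The count was 7 with young GFP libraries 1 and 3 and young Sham libraries 2 and 4 left out, and 4 without young GFP library 4. Of 23 glycolysis and glycogen genes 4 were higher (17.4%), Hk2, Ppp1r3c, Slc2a4 and Pgk1, and 1, Pfkfb3, lower. That number was 12 without young Sham library 1 and 2 with the 4 libraries left out.

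**Figure D3:**
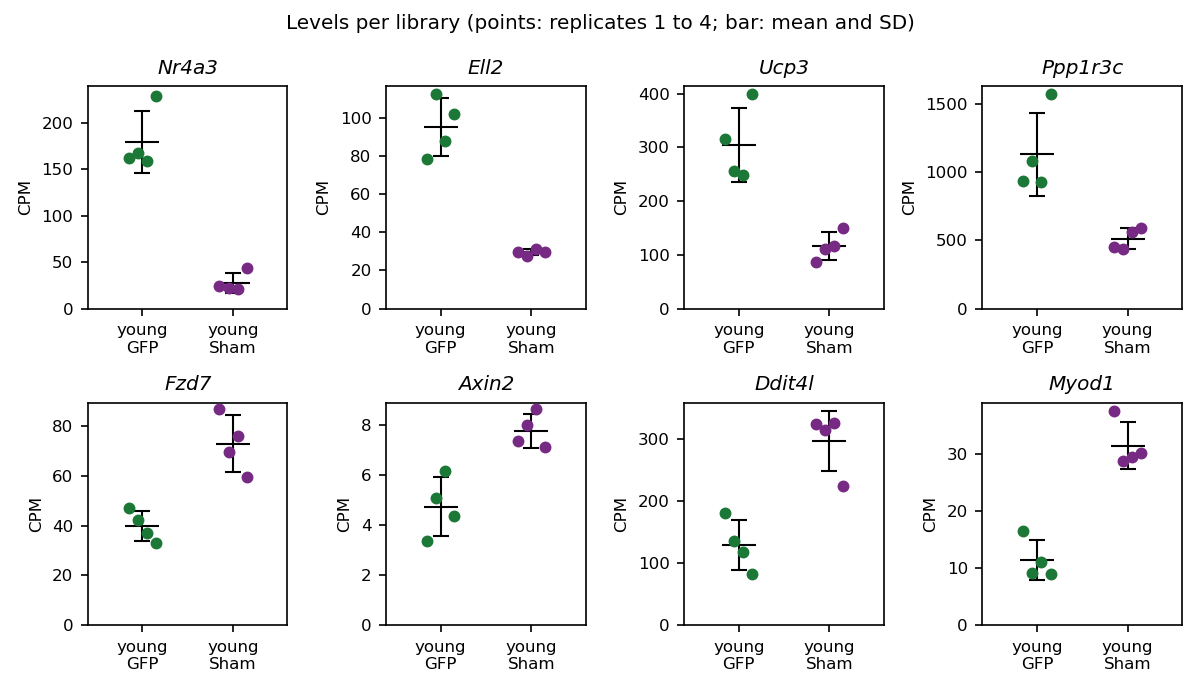
Levels of 8 genes in each library, in CPM on linear axes from 0; points are the 4 young GFP (green) and 4 young Sham (purple) libraries, and the bars are the mean and SD. In each panel no young GFP library overlapped with a young Sham library; Myod1 passed only without adjustment.

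Structural genes of the mitochondrion shifted by small amounts. The list of respiratory complex I had 8 of 36 members higher at an unadjusted p (22.2%) and 0 lower, complexes II to IV 8 of 29 and 0, ATP synthase 4 of 17 and 0, and mitochondrial ribosomal proteins 11 of 77 and 0, beside 4.8% and 8.62% of all genes tested, and none of them passed after adjustment. Their median log2 fold changes were 0.13, 0.13, 0.14 and 0.09. Ndufs3 had a log2 fold change of 0.21 ± 0.07, Sdhd of 0.22 ± 0.08 and Atp5l of 0.26 ± 0.07. These counts moved with the libraries used. With young GFP libraries 1 and 3 and young Sham libraries 2 and 4 left out they were 0, 0, 1 and 1. Without young GFP library 2 they were 3, 3, 2 and 8, without young Sham library 2 they were 3, 1, 2 and 5, and without young Sham library 1 they were 22, 12, 9 and 32. The contractile genes gave no call, with 0 of 12 fast and 0 of 11 slow sarcomere genes past an unadjusted p in either direction. Myh4, the heavy chain of the fastest fibers, was at 53538 to 67413 CPM in young GFP and at 45582 to 62486 CPM in young Sham. The small positive lean was not particular to the mitochondrion. All 12 fast sarcomere genes had a positive fold change, with a median log2 fold change of 0.12. Of 11 slow sarcomere genes 8 were negative, with a median of -0.10. Cytosolic ribosomal proteins had 71 of 83 positive and proteasome subunits 34 of 37, both with a median of 0.07.

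Glucocorticoids act on muscle through Nr3c1 and a set of direct targets. Of 21 targets tested, 8 were higher in young GFP at an unadjusted p (38.1% beside 4.8% of all genes tested), 0 were lower, and Tsc22d3 and Mt2 passed after adjustment, with a median log2 fold change of 0.41 for the list. Tsc22d3, which encodes the glucocorticoid-induced leucine zipper GILZ (chrX:140539528-140600659), was at 255, 318, 265 and 312 CPM in young GFP and at 159, 145, 163 and 182 CPM in young Sham. The groups did not overlap, at a log2 fold change of 0.82 ± 0.18 (edgeR adjusted p = 0.0417). Mt2, a metallothionein that binds zinc and copper and that glucocorticoids also induce (chr8:94172664-94173568), was at 1.10, 2.56, 0.89 and 1.98 CPM in young GFP and at 0.26, 0.15, 0.26 and 0.31 CPM in young Sham. That was low in absolute terms, with a log2 fold change of 2.73 ± 0.61 (edgeR adjusted p = 0.0455). Its neighbour Mt1 was at 30.8 to 54.5 CPM against 6.70 to 19.9 CPM, without overlap, and passed without adjustment only (log2 fold change 1.91 ± 0.46, edgeR adjusted p = 0.0635). Fkbp5, a standard marker of glucocorticoid action, was at 52.2, 63.6, 54.4 and 106 CPM in young GFP and at 28.7, 24.8, 37.3 and 35.8 CPM in young Sham and did not pass (log2 fold change 1.13 ± 0.58, edgeR adjusted p = 0.399).

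The list of muscle atrophy shares Mt1, Mt2, Foxo1, Klf15, Trim63, Fbxo32 and Ddit4 with that of glucocorticoid targets. Of 19 tested, 7 were higher at an unadjusted p (36.8% beside 4.8% of all genes tested), 0 were lower, and the median log2 fold change was 0.33. The 1 that passed after adjustment was Mt2, already counted among the glucocorticoid targets. Foxo1, a factor that turns on ubiquitin ligases and Pdk4 in fasted muscle, was at 94.6, 146, 111 and 148 CPM in young GFP and at 26.8, 34.5, 41.5 and 46.6 CPM in young Sham. Those levels stood well apart, with a log2 fold change of 1.74 ± 0.46, yet the gene passed only without adjustment (edgeR adjusted p = 0.0947). Foxo3 had a log2 fold change of 0.67 ± 0.18. Of the ubiquitin ligases that mark wasting, Trim63 was at 204 to 254 CPM against 146 to 154 CPM (log2 fold change 0.60 ± 0.26, unadjusted p = 0.0296), and Fbxo32 was at 316 to 445 CPM against 270 to 330 CPM and did not pass (log2 fold change 0.33 ± 0.25, unadjusted p = 0.207). With young GFP libraries 1 and 3 and young Sham libraries 2 and 4 left out, the counts were 7 for glucocorticoid targets and 6 for atrophy. Without young GFP library 4 the glucocorticoid count was 5, and with the 8 young libraries fitted alone the counts were 14 and 13.

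Clock genes include the repressors that close the daily feedback loop. Bhlhe41, a clock repressor that binds the E-box (chr6:145858243-145865558), was at 41.6, 53.8, 33.8 and 48.3 CPM in young GFP and at 29.9, 21.6, 22.2 and 20.8 CPM in young Sham. No library overlapped, at a log2 fold change of 0.91 ± 0.20 (edgeR adjusted p = 0.0417). Of the 19 clock genes 4 were higher at an unadjusted p, Bhlhe41, Cry2 (log2 fold change 0.76 ± 0.19), Ciart (1.41 ± 0.37) and Per2 (1.11 ± 0.36), which is 21.1% beside 4.8% of all genes tested. Cry1 (-0.26 ± 0.10) and Npas2 (-0.99 ± 0.42) passed in the lower direction, 10.5% beside 8.62%. Cry2, Ciart and Per2 are repressors of the clock, and each kept its groups apart. Repressors did not all rise. Cry1 is one as well and kept its groups apart in the lower direction, at 12.1 to 13.4 CPM in young GFP and at 13.5 to 17.2 CPM in young Sham. The repressor Nr1d1 was lower too and did not pass (-0.34 ± 0.18, edgeR unadjusted p = 0.0744). The higher count was 4 or 5 whichever single library was left out, while the lower count was 0 without young GFP library 4 and 1 without young GFP library 3, young Sham library 1 or young Sham library 2. With the 4 libraries left out the counts were 4 and 0. Arntl, which encodes the activator BMAL1, was at 16.2 to 26.0 CPM in young GFP and at 20.9 to 28.7 CPM in young Sham. Dbp, an output gene of the clock, was at 30.2 to 48.1 CPM against 20.6 to 50.8 CPM, and neither passed. The hour of sampling was not given in the sources used here, and it cannot be told apart from the treatment.

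Of 18 tested genes of the unfolded protein response of the endoplasmic reticulum, 3 were higher and 0 lower without adjustment, 16.7% beside 4.8% of all genes tested for higher. The list had 10 positive and 8 negative fold changes, with a median log2 fold change of 0.075. Dnajb9, a luminal partner of BiP, passed with adjustment, at 64.4 to 74.8 CPM in young GFP and 46.6 to 55.1 CPM in young Sham (log2 fold change 0.47 ± 0.10, edgeR adjusted p = 0.0412). The other 2 were Hspa5, which encodes BiP itself (0.25 ± 0.10), and Xbp1 (0.33 ± 0.13). Both overlapped between the groups. Young Sham library 4 was at 206.8 CPM for Hspa5 and 121.5 CPM for Xbp1, against 200.2 to 207.7 and 106.6 to 120.7 CPM in young GFP.

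The genes that fell in young GFP included 3 of Wnt signalling, the pathway that stabilises beta-catenin. Fzd7, a Wnt receptor of satellite cells and muscle (chr1:59482424-59486955), was at 47.1, 42.1, 37.0 and 32.9 CPM in young GFP and at 86.9, 69.6, 76.3 and 59.5 CPM in young Sham. All young GFP libraries lay below all young Sham libraries, and the gene fell by 0.88 ± 0.15 on the log2 scale (edgeR adjusted p = 0.0127). Axin2, a target of beta-catenin that also limits it (chr11:108920349-108950783), was at 3.35, 5.07, 6.17 and 4.35 CPM in young GFP and at 7.37, 7.996, 8.64 and 7.13 CPM in young Sham. It fell without overlap, with a log2 fold change of -0.71 ± 0.14 (edgeR adjusted p = 0.0315). Bcl9l, a coactivator of beta-catenin, fell from 49.7 to 53.2 CPM in young Sham to 32.5 to 42.8 CPM in young GFP (log2 fold change -0.40 ± 0.09, edgeR adjusted p = 0.0417). A Wnt list of 47 tested genes, drawn up after these values were seen and holding them, had 15 members lower (31.9% beside 8.62% of all genes tested) and 0 higher at an unadjusted p, among them Dact3 (-0.79 ± 0.18), and supports no direction on its own. That count was 12 with young GFP libraries 1 and 3 and young Sham libraries 2 and 4 left out, and 10 without young GFP library 4.

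Further genes that fell had varied roles. Ddit4l, an inhibitor of mTORC1 in muscle (chr3:137621612-137628333), was at 182, 135, 118 and 82.9 CPM in young GFP and at 325, 315, 326 and 225 CPM in young Sham. It fell without overlap (log2 fold change -1.20 ± 0.26, edgeR adjusted p = 0.0417). Piezo2, a mechanically gated channel, was at 0.94 to 1.54 CPM in young GFP and at 1.78, 5.05, 2.56 and 6.55 CPM in young Sham (log2 fold change -1.60 ± 0.33, edgeR adjusted p = 0.0331), the 2 highest values being those of the libraries with glandular epithelial RNA. Cdh2, which encodes N-cadherin (-1.03 ± 0.23), Fat4, an atypical cadherin (-0.78 ± 0.16), Asic1, an acid-gated channel (-0.96 ± 0.19), Lrrc17 (-1.08 ± 0.21), Tmem44 (-0.85 ± 0.15) and Asap3, a GTPase activator (-0.80 ± 0.14), fell without overlap between the groups. Aldh1a3, which makes retinoic acid, fell as well (-1.003 ± 0.21). Smaller falls were seen in Acsl3, an acyl-CoA synthetase (-0.61 ± 0.11), Polm, a DNA polymerase of end joining (-0.68 ± 0.15), Nmt2, a myristoyltransferase (-0.57 ± 0.13), Ankrd50 (-0.53 ± 0.09) and the chromatin enzymes Tet3 (-0.53 ± 0.09) and Chd2 (-0.58 ± 0.12). Chd2 shares its locus with 1810026B05Rik on the same strand, which was called higher, with a mean of 13.1 CPM in young GFP and 9.92 CPM in young Sham. Summing the strand columns cannot separate them.

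Of 12 markers of satellite cells, the stem cells of muscle, 3 were lower and 0 higher at an unadjusted p (25% beside 8.62% of all genes tested), 7 had a negative and 5 a positive fold change, and the median log2 fold change was -0.09. None passed after adjustment. Myod1, the myogenic factor (chr7:46376474-46379099), was at 16.5, 9.17, 11.1 and 9.01 CPM in young GFP and at 37.5, 28.7, 29.5 and 30.0 CPM in young Sham. The highest young GFP library stood below the lowest young Sham library, with a log2 fold change of -1.46 ± 0.34 that passed without adjustment only (unadjusted p = 0.000382, edgeR adjusted p = 0.0592). Pax7, the factor that marks satellite cells, was at 1.86 to 2.20 CPM against 3.75 to 4.61 CPM (log2 fold change -0.998 ± 0.25, unadjusted p = 0.000594, edgeR adjusted p = 0.0788). Heyl was the third past the unadjusted threshold (-0.50 ± 0.23), and Myf5, another myogenic factor, was at 1.42 to 1.67 CPM against 1.26 to 2.28 CPM and did not pass. Leaving out any single library, or the 4 with keratinocyte or glandular RNA, gave 2 or 3 lower markers. Fewer cells of a type and less RNA per cell cannot be told apart in these bulk samples. Of 20 tested genes of muscle growth and myokines, 2 were lower (10% beside 8.62%) and 1, Il15, was higher (5% beside 4.8%) at an unadjusted p. The lower ones were Acvr2b, a receptor of myostatin (-0.79 ± 0.22), which kept its groups apart, and Igf1 (-1.31 ± 0.34), with overlap in young Sham library 1. Of 18 genes of denervation and the synapse, Musk alone passed an unadjusted p, 5.56% beside 4.8% for higher. The shares of both lists were thus near those of all genes tested. Musk, the kinase that organises the neuromuscular synapse, was at 10.9 to 20.9 CPM against 6.04 to 7.30 CPM (1.07 ± 0.25, edgeR adjusted p = 0.0577).

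The lists that follow the sensing of a vector or its entry held 1 gene that rose after adjustment, Ifi30. None of 32 interferon-stimulated genes was higher at an unadjusted p, and the 2 past it in the lower direction, Ifit3b (-0.61 ± 0.26) and Ddx58 (-0.57 ± 0.27), made up 6.25% beside 8.62% of all genes tested. Of the 32, 31 had a negative fold change, with a median log2 fold change of -0.48 against -0.03 over all genes tested. Isg15 was at 0.58 to 1.05 CPM in young GFP and at 0.99 to 1.29 CPM in young Sham. Fitted on the 8 young libraries alone, 12 of the 32 were lower. Of 18 nucleic acid sensing genes 0 were higher and 3 lower (16.7%), or 1 lower with the 4 libraries left out. All 18 had a negative fold change, with a median log2 fold change of -0.39. Of 22 genes of MHC class I presentation 0 passed in either direction, while 20 had a negative fold change, with a median of -0.40. H2-K1 was at 33.3 to 89.2 CPM against 45.0 to 99.2 CPM. On the list of MHC class II presentation Ifi30, a lysosomal thiol reductase that interferon gamma induces (chr8:70762774-70766663), rose after adjustment. It was at 11.1, 15.2, 15.2 and 18.7 CPM in young GFP and at 4.55, 8.03, 7.12 and 6.88 CPM in young Sham (log2 fold change 1.18 ± 0.22, edgeR adjusted p = 0.0169), while 11 of the 12 members of that list had a negative fold change and H2-DMa passed in the lower direction (-0.83 ± 0.37), as did 4 members with the 4 libraries left out. Ifi30 shares its locus with 6330537M06Rik on the other strand, and had a log2 fold change of 1.24 when the strand columns were summed. Of 15 host factors for the entry of adeno-associated virus, Tm9sf2 alone passed without adjustment, at 82.4 to 91.9 CPM against 77.9 to 84.5 CPM (0.11 ± 0.05).

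Markers of macrophages and inflammatory genes were lower in young GFP without adjustment, and none passed with it. Of 16 macrophage markers 6 were lower and 0 higher (37.5% beside 8.62% of all genes tested), all 16 had a negative fold change and the median log2 fold change was -0.84. Summed, the list was at 78.4, 122, 100 and 75.04 CPM in young GFP and at 115, 225, 165 and 141 CPM in young Sham, so that young GFP library 2 overlapped with young Sham library 1. Adgre1, which encodes F4/80 (-1.13 ± 0.45), Mrc1, the mannose receptor (-0.79 ± 0.31), and Lyz2, lysozyme (-0.90 ± 0.38), were among the 6. Complement had 8 of 21 lower (38.1%), led by C4b, at 8.36, 16.7, 16.7 and 6.98 CPM in young GFP and at 22.6, 30.8, 28.7 and 32.4 CPM in young Sham (-1.23 ± 0.39). NF-kappaB and inflammatory cytokine genes had 6 of 20 lower (30%), led by the feedback inhibitor Socs3 (-0.96 ± 0.34). These counts rested on single libraries. With young GFP libraries 1 and 3 and young Sham libraries 2 and 4 left out they were 0, 0 and 3, without young Sham library 2 they were 0, 2 and 3, and without young GFP library 4 they were 0, 1 and 1. Without young GFP library 1 they were 0, 1 and 2, without young Sham library 3 they were 3, 5 and 1, and without young GFP library 3 the counts for macrophages and complement were 2 and 4. Lymphocyte RNA was high in young Sham libraries 2 to 4 and young GFP library 3, and its part in these counts was not tested. Fitted on the 8 young libraries alone the counts were 13, 9 and 6, and with the B cell level as a covariate in that fit they were 7, 4 and 1.

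**Figure D4:**
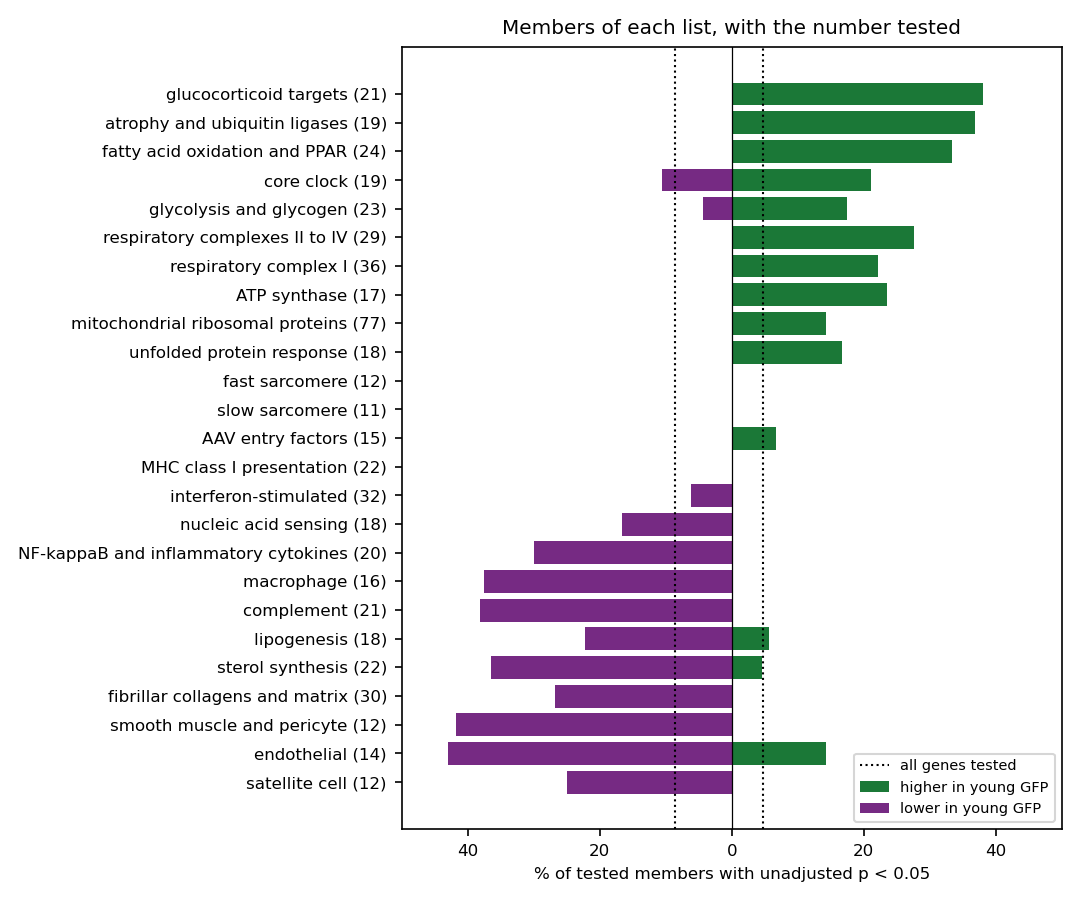
For 25 gene lists, the percentage of tested members with an unadjusted p under 0.05, to the right for higher (green) and to the left for lower (purple) in young GFP, with the number of members tested in brackets; dotted lines are the same over all genes tested (4.8% and 8.62%). Hormone, fuel and mitochondrial lists lie mainly to the right and inflammatory, lipid synthesis, matrix and vessel lists mainly to the left. The endothelial list also has 14.3% higher and the clock list 10.5% lower. Interferon-stimulated genes (6.25% lower) and MHC class I presentation (0% in both directions) stay within the dotted lines, though most members of both lists had a negative fold change.

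Vessel, matrix and lipid synthesis genes were lower in part. The shares below stand beside 8.62% of all genes tested for lower and 4.8% for higher. Of 14 endothelial markers 6 were lower (42.9%) and 2 higher (14.3%), with Egfl7 (-0.38 ± 0.10) and the tight junction gene Cldn5 (-0.73 ± 0.24) lower and Pecam1 at 64.4 to 71.1 CPM against 66.8 to 74.8 CPM. Esm1, a secreted marker of endothelial tip cells, fell from 0.58 to 0.78 CPM in young Sham to 0.26 to 0.44 CPM in young GFP (-1.13 ± 0.25, edgeR adjusted p = 0.0417). Of 12 markers of smooth muscle and pericytes 5 were lower (41.7%) and 0 higher, among them Notch3 (-0.49 ± 0.13), Cspg4, which encodes NG2 (-0.57 ± 0.16), and Myl9 (-0.35 ± 0.10), each without overlap. Of 30 fibrillar collagen and matrix genes 8 were lower (26.7%) and 0 higher, with Postn (-1.17 ± 0.42) and Col14a1 (-0.99 ± 0.38) highest in young Sham library 2 and Col1a1 at 155 to 248 CPM against 166 to 428 CPM. Of 22 sterol synthesis genes 8 were lower (36.4%) and 1 higher (4.55%), among them Mvd (-0.45 ± 0.15) and Insig1 (-0.69 ± 0.27). Of 18 lipogenesis genes 4 were lower (22.2%) and 1 higher (5.56%), with Scd2 (-0.78 ± 0.24), Fads2 (-1.002 ± 0.31) and the master factor Srebf1 (-0.59 ± 0.19) lower. Without young Sham library 2 the lower counts were 3 for endothelial, 3 for smooth muscle and pericyte, 1 for matrix and 3 for sterol genes, and lipogenesis had 4, and the sterol count was 1 without young GFP library 4 and 2 without young Sham library 3. With young GFP libraries 1 and 3 and young Sham libraries 2 and 4 left out they were 2, 2, 0, 3 and 1. White adipocyte markers, which these lipid genes share in fat tissue, summed to 6379 to 8031 CPM in young GFP and 6819 to 8224 CPM in young Sham. That sum is set by the most abundant members. The mean log2 CPM of the 12 markers varied more, from 4.98 to 7.17 in young GFP and from 5.23 to 7.27 in young Sham. Of the 12, 10 had a negative fold change, with a median log2 fold change of -0.48. The part of fat RNA in the lipid genes was not tested.

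Krt8 had the largest fall of any called gene and was carried by 2 libraries. This keratin of glandular epithelium was at 0.00, 0.05, 0.04 and 0.02 CPM in young GFP and at 0.06, 5.77, 0.06 and 19.8 CPM in young Sham (log2 fold change -7.73 ± 1.63, edgeR adjusted p = 0.037). Slc5a5, the iodide transporter of thyroid and mammary gland, passed only without adjustment and followed the same 2 libraries, at 3.48 and 12.8 CPM in young Sham libraries 2 and 4 and at 0.00 to 0.14 CPM in the other 6. Of 18 tested markers of glandular epithelium 14 were lower at an unadjusted p (77.8% beside 8.62% of all genes tested), and 0 were with young Sham libraries 2 and 4 left out. Hepatocyte markers had 7 of 19 lower (36.8%), a number that was 1 without young Sham library 4 and 0 without young GFP libraries 1 and 3, and Alb, albumin, was at 0.12 to 1.09 CPM in young GFP and at 0.04, 9.95, 2.33 and 15.8 CPM in young Sham.

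The 16 libraries of older injected mice, old (21 to 24 months) and oldest-old (27 to 29 months), given the GFP or the Klotho vector, were set beside the young libraries as a description. Over all genes tested, the 4 young GFP libraries lay outside the range of those 16 for 4.6% and the 4 young Sham libraries for 3.9%. Among the 84 called genes the young GFP libraries did so for 34 (40.5%) and the young Sham libraries for 10 (11.9%). Ell2 was at 28.1 to 50.6 CPM in the older injected libraries (median 34.5), which took in 3 of the 4 young Sham libraries and none of young GFP. Nr4a3 was at 11.9 to 99.3 CPM there (median 46.8), which took in all of young Sham and none of young GFP. Ppargc1a was at 32.8 to 55.0 CPM (median 41.3), a range that young GFP library 1 at 57.8 CPM and young Sham library 4 at 59.1 CPM both exceeded by little. Fzd7, which fell in young GFP, was at 47.6 to 90.8 CPM (median 70.9). Tet3 went the other way, at 14.6 to 21.1 CPM in the older injected libraries (median 18.4), with all of young GFP inside that range and all of young Sham above it. The older mice differ in age, and some in vector, so that their levels do not say which young group departs from an uninjected muscle.

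**Figure D5:**
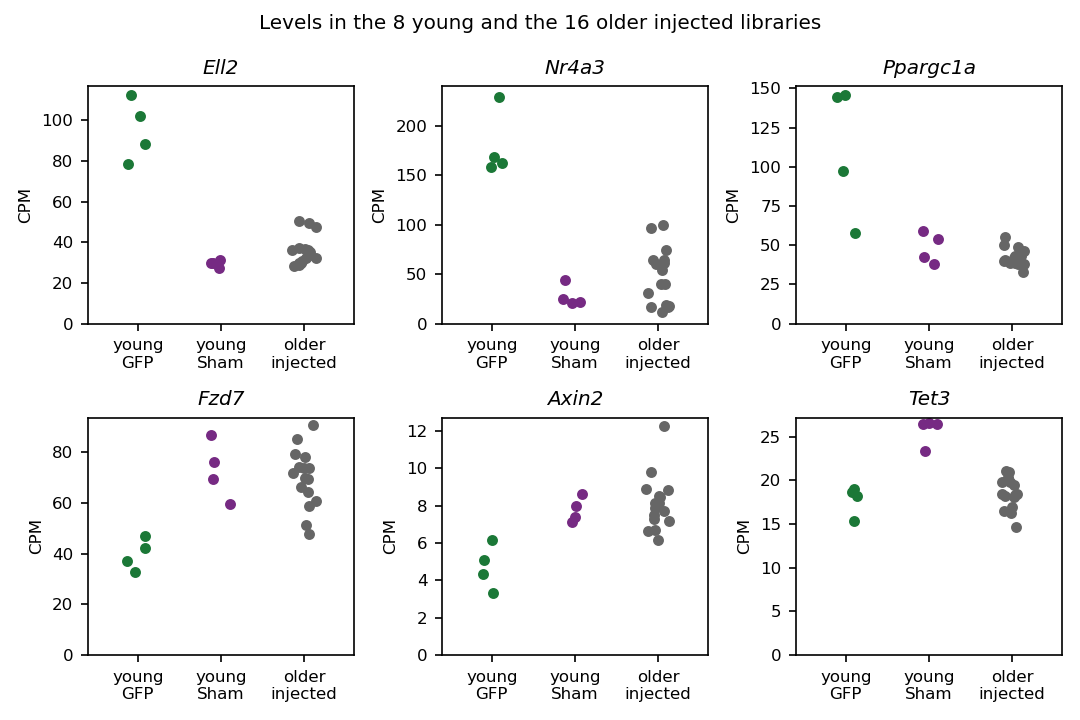
Levels of 6 called genes in CPM on linear axes from 0, with 1 point per library for young GFP (n = 4), young Sham (n = 4) and older injected mice (n = 16). For Ell2, Nr4a3, Ppargc1a, Fzd7 and Axin2 all young GFP points lie outside the range of the older injected points, for Fzd7 and Axin2 by little. For Ppargc1a the lowest young GFP point and the highest young Sham point both lie a little above that range. For Tet3 all young Sham points lie outside it.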

How the data were processed

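Whole gastrocnemius RNA was sequenced, and per the study's methods the authors aligned reads with STAR to GRCm38 (mm10) and deposited read counts per gene for each library; the annotation release is not given in the sources used here. The deposited file of each library gives an unstranded count, used here, and a count for each strand; both strand counts were near equal. Lines that name no gene stayed out, 75.4 to 76.1% of reads in the 8 libraries being on genes. Gene IDs were matched to GENCODE M21, 55144 of 55385. Counts of all 24 libraries in 6 groups were fitted once with edgeR 4.0.16 (R 4.3.3, TMM, quasi-likelihood, filterByExpr with a minimum count of 10), and young GFP was contrasted with young Sham. Genes were called at a Benjamini-Hochberg adjusted p under 0.05 over 17803 genes. CPM are TMM-scaled, log2 CPM has a prior count of 2, and gene lists carry no test. Genes were named as the 15 with the largest change in each direction among called genes (mean log2 CPM of at least 0, no overlap), the 5 with the smallest p in each direction, up to 4 members per list with the smallest p, defining markers and Kl. Members, lists and tests were chosen with earlier results of these data known, and 2 lists were added after values were seen. The study's methods give 4 animals for each injected group; for young Sham no source used here ties libraries to animals, so p-values measure the spread between these samples. Alternatives were DESeq2 1.42.0, its size factors, no filter, the 8 libraries alone, summed strand columns, marker levels as covariates and libraries left out. The edgeR fit was tested on simulated counts. These held no uneven RNA of other tissues, so that the test cannot show how such RNA moves the calls.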

Additional observations from a re-analysis of the deposited data

Results flagged for a closer look

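In 110 groups of 4 libraries, 15 values stood farther from the other 3 than Dixon's 95% critical value, which chance gives in about 1 of 20 groups. Among the named genes, Nr4a3 was at 229.1 CPM in young GFP library 4 (158.5 to 168 in the other 3) and at 44.03 CPM in young Sham library 4 (20.6 to 24.27). Young Sham library 4 also stood apart for Cnksr3 at 6.781 CPM (4.209 to 4.636), Wbp1l at 160 CPM (120.5 to 121.8), Ddit4l at 225.1 CPM (314.5 to 326.4) and Tet3 at 23.36 CPM (26.41 to 26.59), each shifted towards the young GFP levels. Bhlhe41 was at 29.92 CPM in young Sham library 1 (20.8 to 22.23).

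Among marker lists, summed keratinocyte CPM was 165.8 in young Sham library 4 (3.329 to 7.706 in the other 3). Erythroid CPM was 206.2 in young GFP library 4 (161.3 to 167.4) and 380.3 in young Sham library 1 (130.7 to 161.5). Young GFP library 3 had 45.49 CPM of T cell and natural killer markers (2.243 to 2.343), 285.3 CPM of B cell and plasma cell markers (137.4 to 159.6) and 119.7 CPM of immunoglobulin segments (29.54 to 43.14). Young Sham library 1 had 150.9 CPM of B cell and plasma cell markers (236.8 to 250.4), and young GFP library 2 had 2973 CPM of fibro-adipogenic progenitor markers (2114 to 2125).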

How the results depend on the processing

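All 84 called genes kept their direction in each alternative that tested them, but their number did not hold, and the cause was not tested. DESeq2 called 156 genes higher and 134 lower. Its size factors in edgeR left 22 lower, and no filter on low counts 13 lower. With the 8 young libraries alone 123 were higher (1614 without adjustment), and with the keratinocyte level added to that fit 106 (1798). Without young GFP libraries 1 and 3 the calls were 22 higher and 5 lower. After the data were seen, leaving out young Sham libraries 2 and 4 gave 1 higher and 0 lower (537 lower without adjustment), leaving out all 4 gave 3 and 0 (473 and 752 without adjustment), and the B cell level as a covariate with the 8 libraries alone gave 27 and 5 (902 lower without adjustment), against 123 and 51 in that fit without it. Leaving out 1 library at a time gave 1 to 67 higher and 0 to 47 lower calls, 678 to 1759 and 800 to 1832 without adjustment, a pseudo-F of 0.733 to 2.93 and a difference in detected genes of -1625.5 to -846.83. With the strand columns summed, Nmt2 lost its adjusted call (-0.55), and Atp5l (0.11), Heyl (-0.47) and Ddx58 (-0.55) their unadjusted one. The log2 fold change of Kl, not called in any fit, ran from -0.53 to 0.01 with 1 library left out, was -0.56 at its lowest over all alternatives, and reversed without young Sham library 1.

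The replicate numbers did not pair the samples: same-numbered libraries correlated at 0.201, 0.0606, 0.139 and -0.533, and replicate 1 alone correlated best with its own number. With the replicate block, fitted on the 8 libraries, 110 genes were higher and 91 lower (1316 higher without adjustment), against 123 and 51 in the same fit without the block.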
